A study of Mus musculus with 10 samples.

Results

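The mitochondrial respiratory chain and ATP synthase are built from proteins of both genomes of the cell, and their transcripts were described here as one group of 121 genes among the 21956 in the deposited table. The members were chosen by symbol and not by any measured value: every symbol that starts with mt-, Nduf, Uqcr or Atp5, every symbol that starts with Cox and a number, the succinate dehydrogenase genes Sdha, Sdhb, Sdhc and Sdhd, and cytochrome c (Cycs). Of these, 13 are encoded by mitochondrial DNA and 108 by nuclear chromosomes. The nuclear members were sorted into 88 genes for subunits of the 5 complexes or cytochrome c, 17 genes for assembly factors (8 named Ndufaf and 9 Cox genes) and 3 other rows, which are Cox5b-ps, Ndufb11b and a second identifier with the symbol Atp5po. Cox5b-ps is a pseudogene by its symbol, but the GENCODE M21 annotation lists it as protein coding. The inhibitor Atp5if1 was kept with the ATP synthase genes. All 13 mitochondrial genes code for protein, and no mitochondrial rRNA or tRNA row was among the members.

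The libraries came from the hippocampus of mice labelled hMAPT, which carry the human gene for tau, at 6 months of age. The 5 circTau6 mice had received an AAV vector for circTau6, a circular RNA derived from the tau gene MAPT, and the 5 control mice are described as control-injected. For the circTau6 mice the labels give 80 days after injection, and for the controls no interval. All 10 mice share the hMAPT genotype, and the labels give neither the promoter of the vector, the number of cells it reached, nor what the controls were injected with. Total RNA with an integrity number above 8 was depleted of rRNA, so that mitochondrial mRNAs were kept without a selection for poly(A), and the libraries kept strand and were sequenced in pairs of 150 bp reads. The comparison asks how transcripts of both genomes differed between hippocampi with and without the circTau6 vector.

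Electrons from NADH enter the chain at complex I and those from succinate at complex II, both pass them through ubiquinone to complex III, and cytochrome c carries them to complex IV, which reduces oxygen. Complexes I, III and IV pump protons, and ATP synthase (complex V) uses the gradient to make ATP, on which synaptic transmission and ion pumping in neurons depend. Mitochondrial DNA is transcribed from both strands into long precursors that are cut into mRNAs, rRNAs and tRNAs, so its genes share their promoters, while each nuclear gene has its own, often with sites for the factors NRF1 and GABP (an ETS family protein). Complex II is made from nuclear genes alone.

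Total counts were between 14762952 and 17647138 per library. After a filter on low counts, 14396 genes were tested, among them 114 members: all 13 mitochondrial genes, 84 nuclear subunit genes and all 17 assembly factors. The 7 members that were too low to test were Cox7a1, Cox7b2, Cox8b, Cox8c, Cox5b-ps, Ndufb11b and the second Atp5po row. Neuronal markers of the hippocampus were high in every library, with a summed level of 5189 to 6055 CPM (counts scaled to library size, with TMM factors) over 8 genes. Choroid plexus markers (13 genes, among them Ttr) summed to 271 CPM in control replicate 2 and 271 CPM in circTau6 replicate 5, against 3105 to 9095 CPM in the other libraries. The circTau6 replicate 3 library stood apart by base composition: over 14371 genes, the Spearman correlation between a gene's deviation from its 10-library mean and the GC content of its transcript was 0.37 there, against -0.10 to 0.00 in the other 9 libraries. The same correlation with transcript length was -0.26 in circTau6 replicate 3, against -0.09 to 0.12 in the other 9, and no correction for length was made. The mitochondrial genes had a median GC content of 37.1% and the nuclear subunit genes 51.4%. Values without this library or with a GC correction are therefore given beside the results of the respiratory chain groups and of some genes.

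The mitochondrial genes lie so close together that some share bases, and 3 such places are shown because they bear on how reads of the members can be told apart. Sequences are those of the reference genome GRCm38 with the genes of GENCODE M21, written 5' to 3' on the plus strand, and capitals mark the bases that both genes share.
mt-Atp8 and mt-Atp6, chrM:7907-7989: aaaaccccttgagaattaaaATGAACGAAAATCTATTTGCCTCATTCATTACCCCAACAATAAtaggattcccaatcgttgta
mt-Nd4l and mt-Nd4, chrM:10147-10193: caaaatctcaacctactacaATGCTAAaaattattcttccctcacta
mt-Nd5 and mt-Nd6, chrM:13532-13585: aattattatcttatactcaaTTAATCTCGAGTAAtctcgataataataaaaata
mt-Atp8 and mt-Atp6 share 43 bases from position 7927 to 7969 and are carried on 1 mRNA, as are mt-Nd4l and mt-Nd4, which share 7 bases. mt-Nd5 on the plus strand and mt-Nd6 on the minus strand share 14 bases at their 3' ends, and a shared base also joins mt-Atp6 to mt-Co3. The sources used here do not say whether the authors' counting used strand, so reads of mt-Nd5 and mt-Nd6 over their overlap cannot be told apart, nor can reads that span both frames of a shared mRNA. Copies of mitochondrial DNA in the nuclear genome, and processed pseudogenes of many nuclear members, could share reads with these genes in the same way.

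For the nuclear members, the promoter shows what the 2 genomes do not share. RefSeq promoter windows on GRCm38.p6 (250 bases before the start of the gene to 50 after it) were found for 85 of the 108 nuclear members. The windows were searched on both strands for the NRF1 half-palindrome GCATGCGC, the ETS core CCGGAAG, the YY1 site AAGATGGCG and the estrogen-related receptor site AAGGTCA. The windows of Cycs, Cox6a1, Ndufs6 and Cox8a are shown as examples with an NRF1 match, both an NRF1 and an ETS match, a YY1 match and a pair of ETS matches, and that of the muscle isoform Cox7a1 as one with none. Each is written 5' to 3' on the strand of its gene, and capitals mark the matches in either orientation.
Cycs, chr6:50566520-50566819, minus strand: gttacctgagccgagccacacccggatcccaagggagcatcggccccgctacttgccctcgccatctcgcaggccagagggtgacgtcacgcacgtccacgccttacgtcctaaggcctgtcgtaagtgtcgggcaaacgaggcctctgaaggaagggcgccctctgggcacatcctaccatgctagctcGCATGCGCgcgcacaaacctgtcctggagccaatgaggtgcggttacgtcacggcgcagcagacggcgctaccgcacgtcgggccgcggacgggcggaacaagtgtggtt
Cox6a1, chr5:115348909-115349208, minus strand: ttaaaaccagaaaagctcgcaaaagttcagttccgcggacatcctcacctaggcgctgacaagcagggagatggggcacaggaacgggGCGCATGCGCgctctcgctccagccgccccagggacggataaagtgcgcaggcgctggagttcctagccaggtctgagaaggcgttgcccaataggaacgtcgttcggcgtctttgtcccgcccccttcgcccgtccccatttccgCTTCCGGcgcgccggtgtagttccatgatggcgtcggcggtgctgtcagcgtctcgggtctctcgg
Ndufs6, chr13:73328433-73328732, minus strand: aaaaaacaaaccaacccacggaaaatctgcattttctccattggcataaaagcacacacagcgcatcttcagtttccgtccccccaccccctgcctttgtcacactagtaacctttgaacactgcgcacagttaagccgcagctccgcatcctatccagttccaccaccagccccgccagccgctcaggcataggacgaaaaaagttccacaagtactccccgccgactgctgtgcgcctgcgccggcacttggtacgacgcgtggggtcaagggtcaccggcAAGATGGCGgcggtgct
Cox8a, chr19:7217567-7217866, minus strand: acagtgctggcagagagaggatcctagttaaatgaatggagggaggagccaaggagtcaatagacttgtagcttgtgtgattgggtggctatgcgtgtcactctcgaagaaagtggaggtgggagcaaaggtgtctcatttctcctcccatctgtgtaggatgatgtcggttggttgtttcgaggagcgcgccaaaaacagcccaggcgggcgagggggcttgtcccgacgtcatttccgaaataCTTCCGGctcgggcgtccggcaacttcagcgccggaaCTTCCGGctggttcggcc
Cox7a1, chr7:30183921-30184220, plus strand: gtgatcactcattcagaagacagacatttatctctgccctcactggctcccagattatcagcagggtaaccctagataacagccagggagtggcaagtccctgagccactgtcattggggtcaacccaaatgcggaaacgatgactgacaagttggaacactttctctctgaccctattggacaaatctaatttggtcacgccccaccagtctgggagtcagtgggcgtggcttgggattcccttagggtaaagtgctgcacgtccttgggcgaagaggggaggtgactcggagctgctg
The NRF1 letters were in 13 of the 85 windows (15.3%), against 3.05% of the windows of all 27025 genes and 5.60% of those of the 11220 tested genes with a window. The ETS core was in 23 (27.1%, against 9.93% and 18.1%), the YY1 letters in 9 (10.6%, against 1.64% and 3.22%) and the estrogen-related receptor letters in 9 (10.6%, against 5.38% and 4.06%). At least 1 of the 4 was in 42 windows (49.4%, against 18.4% and 27.9%). Among the 14 assembly factors with a window, 7 held the ETS core and 0 the estrogen-related receptor letters. The 2 overlapping NRF1 matches of Cox6a1 are 1 palindrome read on both strands. A match of letters is a description of the window and shows no binding.

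Per transcript length, the mitochondrial genes were far above the nuclear ones in the hippocampus. In the deposited TPM (abundance scaled to transcript length and library), the 13 mitochondrial genes summed to 248265 in the control mean, against 17085 for the 108 nuclear members. The highest were the 3 mitochondrial subunits of complex IV and a subunit of the proton channel of ATP synthase, with mt-Co1 at 45954 ± 704 TPM in controls (mean ± SD, n = 5), mt-Co2 at 35298 ± 591, mt-Atp6 at 31261 ± 495 and mt-Co3 at 28039 ± 559. The complex I genes mt-Nd1, mt-Nd4, mt-Nd2 and mt-Nd5 had 21915, 20016, 14281 and 10724 TPM, and mt-Cytb, the sole mitochondrial subunit of complex III, had 20984 ± 204. The lowest were the minus-strand gene mt-Nd6 (6276 ± 149) and the 3 shortest genes, mt-Nd3 (5864 ± 305), mt-Nd4l (4077 ± 298) and mt-Atp8 (3575 ± 180.2). Over the 5 control libraries, mt-Nd6 and mt-Nd3 were the only neighbours in this order whose ranges overlapped. The pairs on 1 mRNA did not have equal values, mt-Atp8 lying below mt-Atp6 and mt-Nd4l below mt-Nd4 on the TPM scale, and the pairs differ in length, with 204 and 681 bases and 297 and 1378 bases.

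The share of all counts that fell on the mitochondrial genes was slightly lower in most circTau6 libraries. It was 10.05, 10.07, 10.34, 10.24 and 10.13% in control replicates 1 to 5 and 9.89, 10.1, 9.72, 9.59 and 9.87% in circTau6 replicates 1 to 5. The mean was 10.2% ± 0.126 (SD, n = 5) in controls and 9.83% ± 0.19 (SD, n = 5) in circTau6, a difference of -0.332 percentage points. In 4 of the 5 circTau6 libraries the share was below every control, while circTau6 replicate 2 was within the control range. The 95% Wilson interval of a share was at most 0.0305 percentage points wide, which covers counting error only. As a share of TPM the groups had means of 24.8% ± 0.289 and 24.0% ± 0.771 (SD, n = 5 each), again with 4 of 5 circTau6 libraries below every control. As these are bulk libraries, fewer cells rich in mitochondria and less mitochondrial RNA per cell cannot be told apart. The shares carry no GC correction. With that correction in edgeR, 6 of the 13 mitochondrial log2 fold changes were negative with a median of 0.01, against 13 and -0.06 without it. The part of base composition in the shares was not tested.

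**Figure D1:**
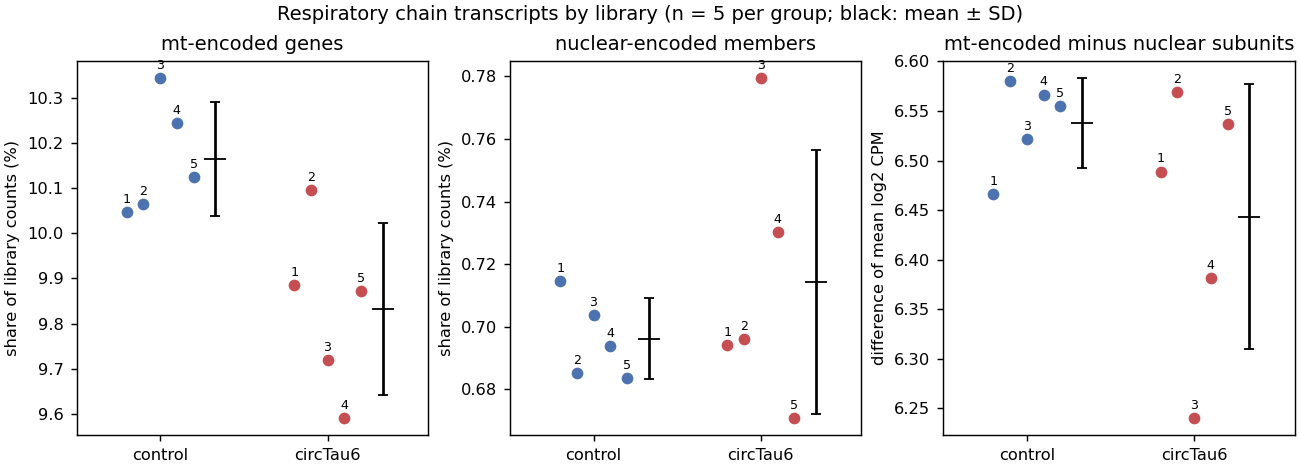
Respiratory chain transcripts in each library. Left and middle: percent of a library's counts on the 13 mitochondrial genes and on the 108 nuclear members. Right: mean log2 CPM of the 13 mitochondrial genes minus that of the 84 tested nuclear subunit genes. Points are libraries with their replicate number, blue for control and red for circTau6, and black bars are the mean ± SD of 5. Axes do not start at 0. The mitochondrial share is below every control in 4 of 5 circTau6 libraries, and circTau6 replicate 3 has both the highest nuclear share (0.779%) and the lowest difference (6.24).

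No member passed the test between circTau6 and control mice. With edgeR's quasi-likelihood test and Benjamini-Hochberg adjustment over all tested genes, 0 of 114 members and 0 of 14396 genes (0%) had an adjusted p under 0.05, and the members' adjusted p were 0.981 and above. With DESeq2, 14 genes (0.097% of 14428) were called and none of them was a member. At an unadjusted p under 0.05, 5 members were lower after circTau6, against 1.85% of all tested genes, and 1 was higher, against 2.58%. The 5 lower ones were mitochondrial complex I genes (mt-Nd1, mt-Nd2, mt-Nd3, mt-Nd4 and mt-Nd5), and the higher one was the nuclear complex IV gene Cox8a. All such p-values refer to the spread among the 5 mice of a group.

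All 13 mitochondrial genes had a negative log2 fold change (12 of 13 without library scaling factors), where 50.1% of all tested genes did. Their median was -0.06, with a range from -0.19 to -0.02, beside a median of 0.00 over all genes. Since these genes are transcribed together and were measured in the same libraries, the 13 are not independent observations. The 7 complex I genes had a median of -0.11 and the other 6 a median of -0.03. After correction for transcript GC content in each library, an edgeR alternative, 6 of the 13 fold changes were negative, their median was 0.01, and 1 gene (mt-Nd4) had an unadjusted p under 0.05. Without circTau6 replicate 3, all 13 were negative with a median of -0.05 and 3 unadjusted p under 0.05, and without circTau6 replicate 4 or without control replicate 4, 12 and 11 were negative and 0 had an unadjusted p under 0.05. Of the 14396 tested genes, 637 had such a p in the main fit and 649 with the GC correction. Without circTau6 replicate 3, circTau6 replicate 4 or control replicate 4, 468, 485 and 442 did.

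mt-Nd4, a proton-pumping subunit in the membrane arm of complex I (ENSMUSG00000064363, chrM:10167-11544, a single exon), was the 1 member for which every circTau6 library was below every control, as was the case for 0.368% of all tested genes. It had 10849.5, 10989, 11324, 11498 and 11315 CPM in control replicates 1 to 5 and 10771, 10545, 7799, 9477 and 10665 CPM in circTau6 replicates 1 to 5. The circTau6 replicate 3 value was far below the rest, replicate 4 was next, and replicates 1, 2 and 5 were close under the lowest control. Its log2 fold change was -0.18 ± 0.07 (SE), with an unadjusted edgeR p of 0.0261 and an adjusted p of 0.981. It was -0.11 without circTau6 replicate 3 and -0.12 with the GC correction. In the authors' deposited table its log2 fold change of mean TPM was -0.17, with a p-value of 0.177.

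mt-Nd2, mt-Nd1 and mt-Nd5, further subunits of that arm, had smaller differences. mt-Nd2 had 5673, 5737, 5842, 6413 and 6419 CPM in controls and 5521, 5608, 5466, 5222 and 5827 CPM in circTau6 mice. Control replicates 4 and 5 were the highest, and circTau6 replicate 5 was within the control range. The log2 fold change of mt-Nd2 was -0.12 ± 0.05 (SE; edgeR unadjusted p 0.0249, adjusted p 0.981). mt-Nd1 had 8334, 8369, 8768, 8657 and 8435 CPM in controls and 8115, 8441, 7533, 7872 and 7914 CPM in circTau6 mice, with 4 of 5 circTau6 libraries below every control and replicate 2 among the controls. Its log2 fold change was -0.09 ± 0.04 (SE). mt-Nd5 had 7881, 7778, 8284, 7914 and 7843 CPM in controls and 7733, 7876, 7017, 7170.3 and 7399.9 CPM in circTau6 mice, again with replicate 2 as the 1 circTau6 library inside the control range and a log2 fold change of -0.09 ± 0.04 (SE). With the GC correction the log2 fold changes of mt-Nd2, mt-Nd1 and mt-Nd5 were -0.04, -0.03 and -0.03.

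The 3 remaining complex I genes differed between libraries within each group. mt-Nd3 had 798, 848, 794, 896 and 805 CPM in controls and 739, 842, 584, 684 and 770.0 CPM in circTau6 mice, with replicate 3 lowest and replicate 2 between the controls. Its log2 fold change of -0.19 ± 0.08 (SE) was the most negative of the 13, and it was -0.13 without circTau6 replicate 3 and -0.11 with the GC correction. mt-Nd6, the only one of the 13 coded on the minus strand, had 1283, 1276, 1369.5, 1353 and 1329 CPM in controls and 1328, 1438, 978, 1210.3 and 1192 CPM in circTau6 mice. Within the circTau6 group it was highest in replicate 2, above all controls, and lowest in replicate 3. Its log2 fold change was -0.11 ± 0.08 (SE), against -0.04 without circTau6 replicate 3 and -0.03 with the GC correction. mt-Nd4l had 478, 479, 468, 558 and 475 CPM in controls and 448, 600.0, 446, 428 and 469.5 CPM in circTau6 mice. Control replicate 4 and circTau6 replicate 2 stood above the other libraries, and the log2 fold change was -0.04 ± 0.09 (SE).

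The mitochondrial genes of the other complexes were closer to equal. mt-Cytb had 9547, 9618, 9947, 9853 and 9754 CPM in controls and 9523, 9316, 9663, 8984 and 9390.2 CPM in circTau6 mice, with 4 of 5 circTau6 libraries under every control, replicate 3 inside the control range and a log2 fold change of -0.06 ± 0.04 (SE). mt-Co1, which carries the oxygen-reducing site of complex IV and had the most counts of all members, had 28581, 29073, 29581, 28608 and 28237 CPM in controls and 27697, 28906, 27784, 27432 and 28718 CPM in circTau6 mice. The groups overlapped, and the log2 fold change was -0.04 ± 0.04 (SE). mt-Co2, which takes up electrons from cytochrome c, had 9486, 9833, 9952, 10028 and 9699 and 9527, 10022, 9724, 9270.0 and 9617 CPM (log2 fold change -0.02 ± 0.04, SE). mt-Co3 had 8833, 8879.7, 9270.0, 9015 and 8617 and 8720.4, 8565, 9188, 8601 and 8587 CPM, and here circTau6 replicate 3 was the highest of its group (log2 fold change -0.03 ± 0.04, SE).

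Both mitochondrial genes of ATP synthase had one circTau6 library above all controls. mt-Atp6 had 8411, 8542, 8886, 8837 and 8531 CPM in controls and 8479, 9051, 7718, 7849 and 8316 CPM in circTau6 mice, with replicate 2 highest and replicates 3 and 4 lowest of all 10 libraries. mt-Atp8 had 279, 301, 298, 319 and 283 CPM in controls and 271, 388, 291, 242 and 265 CPM in circTau6 mice, also with replicate 2 highest and replicate 4 lowest. Their log2 fold changes were -0.06 ± 0.05 and -0.02 ± 0.11 (SE). Although the pair sits on 1 mRNA, the difference of mt-Atp8 from mt-Atp6 in log2 CPM varied between libraries. It was -4.96, -4.54, -4.73, -5.02 and -4.97 in circTau6 replicates 1 to 5, against -4.92 to -4.79 in controls. Thus 3 circTau6 libraries were below every control and 2 above. For mt-Nd4l and mt-Nd4 the same difference was -4.14 in circTau6 replicate 2 and -4.13 in replicate 3, against -4.60 to -4.36 in controls.

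**Figure D2:**
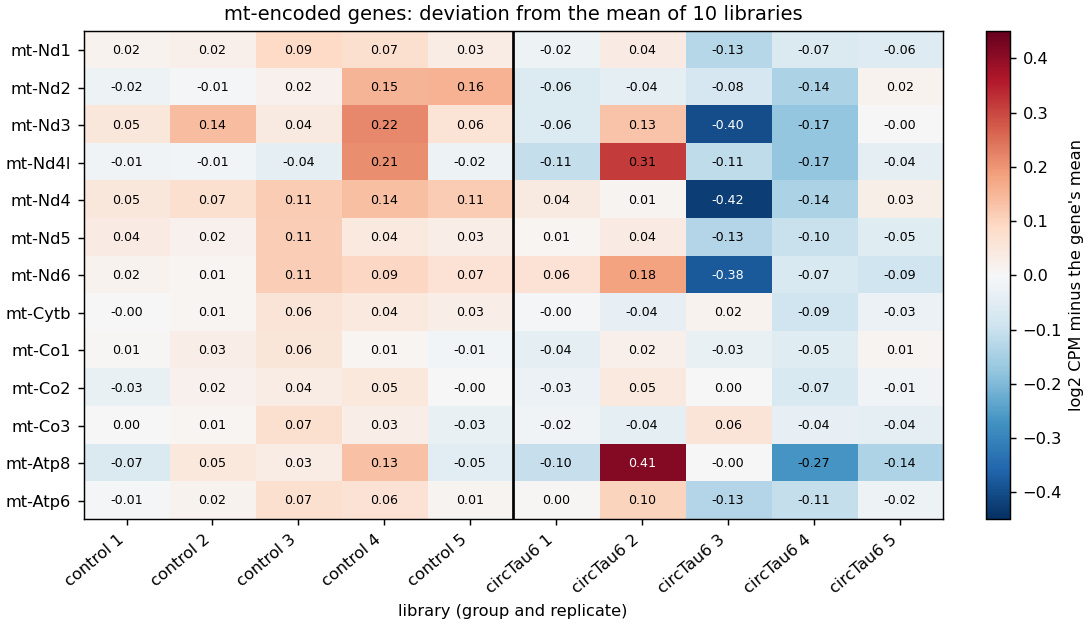
The 13 mitochondrial protein genes in 10 libraries. Each cell is the gene's log2 CPM in the library minus its mean over all 10 (red above, blue below), and the black line parts the groups. circTau6 replicate 3 is low for mt-Nd4 (-0.42), mt-Nd3 (-0.40) and mt-Nd6 (-0.38), while mt-Atp8 (0.41) and mt-Nd4l (0.31) are high in circTau6 replicate 2.

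Low values of the mitochondrial genes came mostly from 2 libraries. circTau6 replicate 3 was the lowest of all 10 libraries for 6 of the 13 genes, and circTau6 replicate 4 for another 6. Over all 14396 tested genes, circTau6 replicate 3 was the lowest for 2901 and circTau6 replicate 4 for 1041. Over the 13 genes, the Spearman correlation of the deviations with GC content was 0.53 in circTau6 replicate 3 and 0.49 in replicate 4, against -0.51 to -0.16 in controls and -0.14, -0.35 and 0.09 in circTau6 replicates 1, 2 and 5. These are descriptions over genes of 1 genome that share library and transcript. In the same 2 libraries the choroid plexus markers (9095 and 7501 CPM) were among the 3 highest of the 10, and the meningeal fibroblast markers (5 genes, among them Dcn and Col1a1) were the highest, at 153 and 128 CPM against 57.2 to 113 CPM elsewhere. The neuronal marker sum was 5189, 5375 and 5473 CPM in circTau6 replicates 3, 1 and 4, below every control (5539 to 6055 CPM), and within the control range in replicates 2 and 5. All 8 neuronal markers and all 4 markers of excitatory neurons had a negative log2 fold change, with medians of -0.05 and -0.05, where 50.1% of all tested genes were negative. Of these 2 lists, 0 and 1 genes were lower at an unadjusted edgeR p under 0.05, where 1.85% of all tested genes were. Of 5 markers of inhibitory neurons, 3 were negative and 0 had such a p. The inhibitory sums overlapped, at 673 to 766 CPM in controls and 646 to 777 CPM in circTau6 mice. Microglial markers (6 genes, among them Cx3cr1 and P2ry12) summed to 314 to 342.4 CPM in controls and 342.6 to 376 CPM in circTau6 mice. The groups did not overlap but almost met. Of the 6 genes, 4 were higher at an unadjusted edgeR p under 0.05, where 2.58% of all tested genes were. P2ry12 went the other way, with means of 48.5 CPM in controls and 47.6 CPM in circTau6 mice. An unadjusted edgeR p under 0.05 was found for 0 of the 13 choroid plexus and 0 of the 5 meningeal markers. Without control replicate 2 and circTau6 replicate 5, the 2 libraries poor in choroid plexus markers, the mitochondrial median was -0.07. The part of the neuronal, microglial and meningeal markers in the mitochondrial levels was not tested.

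The nuclear subunit genes went both ways. Of 84 tested, 34 had a negative and 50 a positive log2 fold change (24 and 60 without library scaling factors), with a median of 0.01 and a range from -0.20 to 0.35. At an unadjusted p under 0.05, 0 were lower and 1 was higher, against 1.85% and 2.58% of all tested genes. All 108 nuclear members took 0.684 to 0.715% of counts in controls and 0.671 to 0.779% in circTau6 mice. circTau6 replicate 3 was the highest library for 44 of the 84 genes and circTau6 replicate 5 the lowest for 27. Over all 14396 tested genes, circTau6 replicate 3 was the highest for 2640 and circTau6 replicate 5 the lowest for 1584. Without circTau6 replicate 3 the 84 split into 54 negative and 30 positive with a median of -0.02, on the other side of 0. With the GC correction 37 of the 84 were negative and the median was 0.01.

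**Figure D3:**
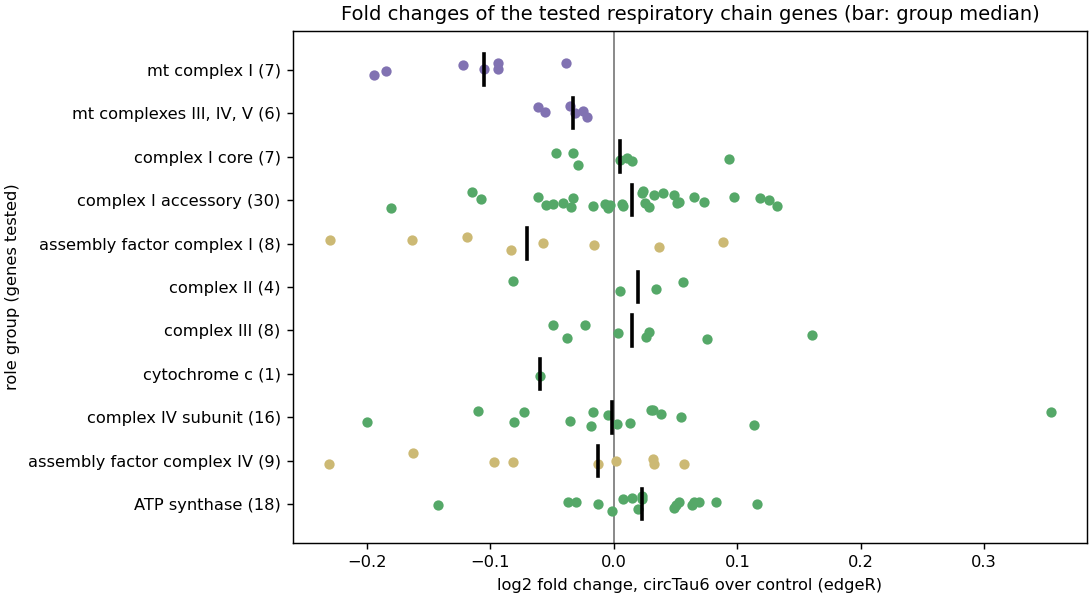
Log2 fold changes (circTau6 over control, edgeR) of the 114 tested members by role. Points are genes, violet for mitochondrial genes, green for nuclear subunits and ochre for assembly factors, black bars are group medians, the number of genes is in parentheses, and vertical scatter within a row has no meaning. All mitochondrial genes lie left of 0, with a median of -0.11 for complex I, and most nuclear groups are spread around 0.

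Set against each other, mitochondrial and nuclear genes gave a difference of mean log2 CPM (13 mitochondrial minus 84 nuclear subunit genes) of 6.47, 6.58, 6.52, 6.57 and 6.55 in control replicates 1 to 5 and 6.49, 6.57, 6.24, 6.38 and 6.54 in circTau6 replicates 1 to 5. The groups overlapped in 3 of 5 circTau6 libraries, and replicates 3 and 4 lay below every control. The mean was 6.54 ± 0.05 in controls and 6.44 ± 0.13 in circTau6 (SD, n = 5 each), a difference of -0.09. Without circTau6 replicate 3 the difference was -0.04, with the GC correction it was -0.02, and without both libraries poor in choroid plexus markers it was -0.11.

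Complex I, the entry point of electrons from NADH, has 7 nuclear core and 30 accessory members, and 0 of the 37 had an unadjusted p under 0.05. Over all tested genes, 1.85% were lower and 2.58% higher at such a p. The core genes had control levels of 99.9 to 206 TPM, a median log2 fold change of 0.00, and 3 negative and 4 positive members. Without circTau6 replicate 3, 6 of the 7 were negative (median -0.03), and with the GC correction 4 were (median -0.01). Ndufv2, an iron-sulphur subunit of the NADH-oxidising module, was the most abundant core gene per length. It had 87.1, 86.8, 92.1, 90.8 and 86.7 CPM in controls and 88.8, 84.5, 86.4, 88.3 and 85.5 CPM in circTau6 mice, with circTau6 replicates 2, 3 and 5 just below the lowest control (log2 fold change -0.03 ± 0.04, SE). Ndufs8, an iron-sulphur subunit of the quinone module, had 33.6, 32.8, 35.6, 31.8 and 30.8 CPM in controls and 35.2, 33.5, 35.8, 35.8 and 35.2 CPM in circTau6 mice. Its circTau6 values lay in or above the upper part of the control range, with a log2 fold change of 0.09 ± 0.06 (SE; edgeR unadjusted p 0.114).

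The accessory subunits, which surround the core, had 13 negative and 17 positive fold changes and a median of 0.02, from -0.18 (Ndufb1) to 0.13 (Ndufs6). Without circTau6 replicate 3, 18 of the 30 were negative (median -0.02), and with the GC correction 14 were (median 0.01). GENCODE M21 lists the Ndufb1 row as Ndufb1-ps, a bidirectional promoter lncRNA. Ndufs6, a zinc-binding subunit whose promoter is shown above with its YY1 match, had 16.6, 14.6, 15.2, 15.8 and 14.9 CPM in controls and 17.2, 16.5, 17.2, 16.1 and 17.5 CPM in circTau6 mice. circTau6 replicates 1, 3 and 5 were above every control, and replicates 2 and 4 above all but control replicate 1 (log2 fold change 0.13 ± 0.07, SE; edgeR unadjusted p 0.0896, adjusted p 0.981). Ndufv3, a subunit of the NADH module with a long and a short isoform, had 27.6, 26.8, 31.1, 29.4 and 28.2 CPM in controls and 29.6, 32.1, 33.6, 30.8 and 29.2 CPM in circTau6 mice (log2 fold change 0.12 ± 0.06, SE). Control replicates 3 and 4 were within the circTau6 range. The most abundant accessory gene per length was Ndufa12, at 226 ± 10.3 TPM in controls, with a log2 fold change of 0.07 ± 0.06 (SE).

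Complex II, which also belongs to the tricarboxylic acid cycle, had log2 fold changes from -0.08 to 0.06 over its 4 genes. Their median was 0.02, against -0.01 without circTau6 replicate 3 and 0.02 with the GC correction. Sdha, the flavoprotein that oxidises succinate, was the most abundant at 289.6 ± 10.2 TPM in controls. It had 345, 351, 345, 324 and 339 CPM in controls and 337, 351, 368, 354 and 335 CPM in circTau6 mice, ranges that overlapped (log2 fold change 0.03 ± 0.04, SE). Sdhc, a membrane anchor, had 51.5 to 63.7 CPM in controls and 50.1 to 55.5 CPM in circTau6 mice (log2 fold change -0.08 ± 0.06, SE).

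Complex III had 8 nuclear members with a median of 0.01, of which 3 were negative. Without circTau6 replicate 3, 5 of the 8 were negative (median -0.05), and with the GC correction 3 were (median 0.01). Uqcr10, a small subunit of the complex, had the largest difference. It had 23.9, 22.4, 26.98, 23.97 and 24.1 CPM in controls and 25.3, 29.1, 32.6, 26.1 and 22.4 CPM in circTau6 mice, with circTau6 replicates 2 and 3 above every control and replicate 5 among the lowest libraries. The log2 fold change was 0.16 ± 0.09 (SE; edgeR unadjusted p 0.101). Uqcrh, the hinge protein at the docking site of cytochrome c, was the most abundant at 265 ± 17.5 TPM in controls (log2 fold change 0.08 ± 0.06, SE). Cycs, the carrier itself, had 136, 130.4, 129, 129 and 133 CPM in controls and 128, 125, 122, 131 and 125 CPM in circTau6 mice. Only circTau6 replicate 4 lay within the control range, and the log2 fold change was -0.06 ± 0.04 (SE; edgeR unadjusted p 0.146).

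Complex IV has 20 nuclear members, many of them tissue-specific isoforms, of which 16 were tested with 8 negative and 8 positive fold changes. Without circTau6 replicate 3, 11 of the 16 were negative (median -0.03), and with the GC correction 8 were (median 0.00). Cox8a, the ubiquitous form of the smallest subunit and the most abundant per length at 897 ± 31.2 TPM in controls, was the nuclear member with the lowest unadjusted p. It had 200.4, 191, 214, 202 and 195 CPM in controls and 211, 211, 245, 216 and 200.2 CPM in circTau6 mice. circTau6 replicates 3 and 4 were above every control, replicates 1 and 2 were within the top of the control range and replicate 5 was in the middle of it. The log2 fold change was 0.11 ± 0.05 (SE; edgeR unadjusted p 0.0477, adjusted p 0.981), and in the authors' deposited table it was 0.13 with a p-value of 0.04 and an FDR of 0.987, the lowest p-value among the members there. Its promoter holds the 2 ETS matches shown above. No member had every circTau6 library above every control, as 0.472% of all tested genes did.

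The isoforms of complex IV separated into high and near-absent forms, in the same way in both groups. Per length, Cox4i1, the ubiquitous subunit 4, was at 740.3 ± 22.1 TPM in controls against 2.14 ± 0.838 TPM for Cox4i2, a form known from lung and hypoxia. The heart and muscle forms were low beside the ubiquitous ones, with Cox6a2 at 10.1 ± 1.94 against 499.9 ± 32.3 TPM for Cox6a1, Cox7a1 at 1.61 ± 0.999 against 173 ± 6.53 TPM for Cox7a2, and Cox8b at 2.05 ± 1.43 TPM. The 6 muscle markers searched (among them Ckm and Mb) summed to only 0.567 to 2.80 CPM, and 0 of them passed the filter. Of the testis forms, Cox6b2 was at 7.995 ± 3.62 TPM against 256 ± 7.52 TPM for Cox6b1, and Cox8c had 0 counts in all 10 libraries, where 3 counts would be 0.203 CPM in the shallowest. Cox6b2 and Cox8b were lowest in the 2 libraries poor in choroid plexus markers, at 2.56 and 3.49 TPM and at 0 and 0 TPM in control replicate 2 and circTau6 replicate 5, against 5.91 to 19.2 TPM and 0.804 to 4.53 TPM in the other 8 libraries. Cox7a2l, which joins complexes III and IV in supercomplexes, was at 189 ± 10.8 TPM.

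None of these isoforms passed the test. Cox4i1 had 227, 228, 231, 218 and 216 CPM in controls and 215, 211, 236, 225 and 218 CPM in circTau6 mice (log2 fold change -0.02 ± 0.04, SE). Cox7a2 had 45.5, 46.6, 49.3, 47.00 and 43.7 CPM in controls and 41.3, 40.98, 41.6, 43.8 and 47.5 CPM in circTau6 mice, with circTau6 replicates 1, 2 and 3 below every control and replicate 5 among the highest (log2 fold change -0.11 ± 0.06, SE; edgeR unadjusted p 0.0693). Cox7a2l had a log2 fold change of 0.04 ± 0.05, Cox6a1 of 0.00 ± 0.06 and Cox6b1 of -0.02 ± 0.05 (SE). For the low forms the error was wide, with log2 fold changes of -0.20 ± 0.40 for Cox4i2, 0.03 ± 0.23 for Cox6a2 and 0.35 ± 0.47 for Cox6b2 (SE). Ndufa4, first named as a complex I subunit and now placed in complex IV, had 87.4 to 98.1 CPM in controls and 78.4 to 94.9 CPM in circTau6 mice (log2 fold change -0.04 ± 0.05, SE). Its relative Ndufa4l2, induced by hypoxia, was at 3.48 ± 0.518 TPM against 370.4 ± 16.7 TPM for Ndufa4.

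**Figure D4:**
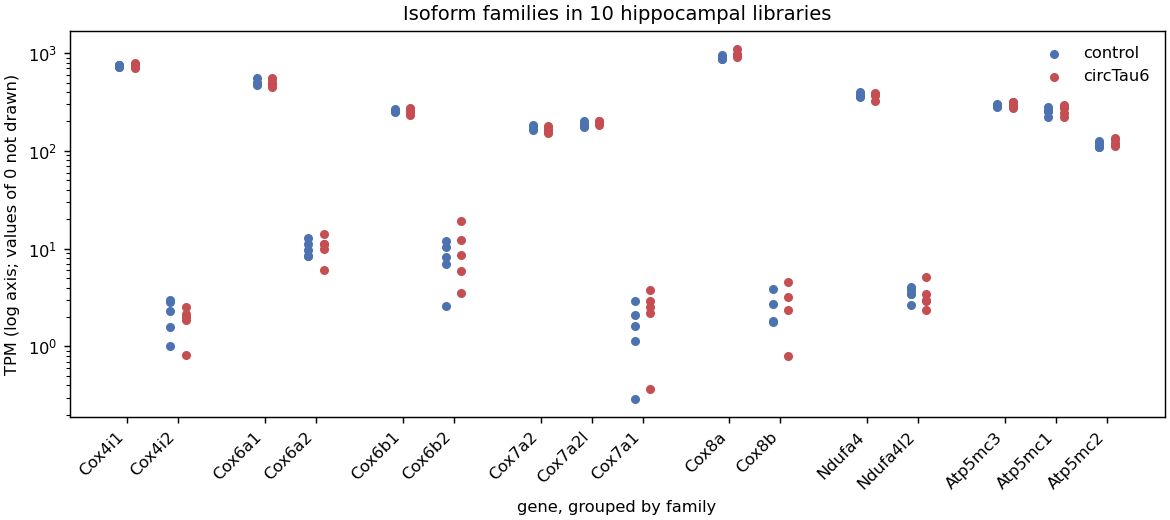
TPM of isoform families in each library on a log axis, blue for control and red for circTau6. Values of 0 are not drawn, and Cox8c, which had none above 0, is left out. Cox4i2, Cox6a2, Cox6b2, Cox7a1, Cox8b and Ndufa4l2 are far below the main form of their family in all libraries, while the 3 genes for the c-ring of ATP synthase, Atp5mc1, Atp5mc2 and Atp5mc3, lie close together at 254, 117 and 291 TPM in the control mean.

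ATP synthase had 18 nuclear members, 5 with a negative and 13 with a positive fold change and a median of 0.02. Without circTau6 replicate 3, 11 of the 18 were negative (median -0.01), and with the GC correction 6 were (median 0.03). Atp5f1b, the catalytic beta subunit and the most abundant nuclear member per length at 1078 ± 21.2 TPM in controls, had 862, 818, 841, 838 and 834 CPM in controls and 819, 809, 931, 881 and 819 CPM in circTau6 mice. circTau6 replicates 3 and 4 were the highest libraries and the other 3 sat close to the lowest control (log2 fold change 0.02 ± 0.05, SE). The c-ring genes, which encode the same mature protein, had log2 fold changes of 0.02 ± 0.07 for Atp5mc1, 0.06 ± 0.07 for Atp5mc2 and 0.02 ± 0.05 for Atp5mc3 (SE). The widest differences were those of 2 small subunits. Atp5me had 10.5 to 12.2 CPM in controls and 9.25 to 12.1 CPM in circTau6 mice (log2 fold change -0.14 ± 0.09, SE), and Atp5f1e had 14.7 to 17.3 CPM in controls and 15.3 to 19.98 CPM in circTau6 mice (log2 fold change 0.12 ± 0.09, SE).

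The assembly factors, which insert cofactors or hold intermediates and are not part of the finished complexes, had 11 negative and 6 positive fold changes (9 and 8 without library scaling factors) and a median of -0.06. At an unadjusted p under 0.05, 0 were lower and 0 higher, against 1.85% and 2.58% of all tested genes. Without circTau6 replicate 3, 14 of the 17 were negative (median -0.06). With the GC correction 11 were negative (median -0.03) and 1 had such a p. Ndufaf4, an early complex I assembly factor, had 40.3, 39.05, 42.7, 46.4 and 39.9 CPM in controls and 39.7, 38.5, 30.1, 35.7 and 42.2 CPM in circTau6 mice. circTau6 replicates 3 and 4 were well below every control and replicates 1, 2 and 5 lay near the controls (log2 fold change -0.16 ± 0.08, SE; edgeR unadjusted p 0.0618). Ndufaf6, another early factor, had a log2 fold change of -0.23 ± 0.21 (SE) at 2.68 to 4.85 CPM in controls and 2.04 to 3.47 CPM in circTau6 mice. Ndufaf5, an enzyme that modifies Ndufs7, was the most abundant complex I assembly factor per length at 36.7 ± 3.33 TPM in controls (log2 fold change -0.08 ± 0.08, SE).

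Among the complex IV factors, Cox11, which delivers copper to mt-Co1, had 8.86, 7.89, 7.75, 8.57 and 9.61 CPM in controls and 8.44, 6.09, 5.798, 7.95 and 8.09 CPM in circTau6 mice. circTau6 replicates 2 and 3 were below every control and the other 3 inside the control range (log2 fold change -0.23 ± 0.13, SE; edgeR unadjusted p 0.0933). Cox14, which acts on newly made mt-Co1, had 20.6, 20.8, 20.7, 24.2 and 18.2 CPM in controls and 17.1, 19.3, 18.1, 19.4 and 19.5 CPM in circTau6 mice, with 2 circTau6 libraries below every control (log2 fold change -0.16 ± 0.08, SE). Cox17, the copper chaperone of the intermembrane space and the most abundant assembly factor per length at 79.7 ± 8.92 TPM in controls, had 13.2 to 19.6 CPM in controls and 14.8 to 17.6 CPM in circTau6 mice (log2 fold change -0.08 ± 0.10, SE).

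Other genes of mitochondrial supply and energy metabolism likewise had 0 calls, with edgeR adjusted p of 0.981 for each gene whose log2 fold change is given here. Of 13 regulators of mitochondrial biogenesis, such as Ppargc1a, Nrf1 and Gabpa, 0 had an unadjusted p under 0.05 in either direction (median -0.01). Over all tested genes, 1.85% were lower and 2.58% higher at such a p. Gabpa, the DNA-binding part of GABP, had 43.2 ± 5.04 against 39.03 ± 4.99 CPM (log2 fold change -0.15 ± 0.10, SE). Of 18 genes that maintain or transcribe mitochondrial DNA, 0 had such a p, 13 were negative (10 without library scaling factors) and the median was -0.04. Of 23 genes for processing, stability or translation of mitochondrial RNA, 19 were negative (15 without library scaling factors, median -0.04 with them). Among them 1 gene was lower at an unadjusted edgeR p under 0.05, where 1.85% of all tested genes were. That gene was Trmt10c, a subunit of the RNase P that cuts tRNAs from mitochondrial precursors, with 13.1 ± 0.624 against 10.7 ± 1.77 CPM and a log2 fold change of -0.29 ± 0.11 (SE).

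For the next lists, the counts are of genes with an unadjusted edgeR p under 0.05, where 1.85% of all tested genes were lower and 2.58% higher. Of 35 assembly factors with other names, 1 was lower and 1 higher: Tmem70, a factor for ATP synthase, with 32.7 ± 2.76 against 28.8 ± 2.46 CPM (log2 fold change -0.18 ± 0.08, SE), and the complex II factor Sdhaf4 with 5.78 ± 0.7003 against 6.99 ± 0.681 CPM (log2 fold change 0.27 ± 0.13, SE). Of 19 tricarboxylic acid cycle genes 2 were higher, Suclg2, a subunit of succinyl-CoA ligase, with 18.4 ± 1.096 against 21.9 ± 2.31 CPM (log2 fold change 0.26 ± 0.08, SE), and malate dehydrogenase Mdh2 with 195 ± 5.21 against 208 ± 9.84 CPM (log2 fold change 0.09 ± 0.04, SE). Of 19 glycolysis genes 0 were. Single genes were lower among 15 carriers and channels (the glutamate carrier Slc25a22, log2 fold change -0.09 ± 0.04, SE) and 18 dynamics and mitophagy genes (the fission GTPase Dnm1l, -0.10 ± 0.04, SE), and 1 was higher among 12 stress response genes (Shmt2, 0.22 ± 0.09, SE). Among 20 import and 13 antioxidant genes there were 0.

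Of the 78 mitochondrial ribosome genes, whose products translate the 13 mitochondrial mRNAs, 4 were lower and 1 was higher at an unadjusted edgeR p under 0.05. Over all tested genes the shares were 1.85% lower and 2.58% higher. The median of the 78 was -0.01. Mrpl32 was the one with the lowest p, at 14.9 ± 0.647 against 12.7 ± 1.12 CPM (log2 fold change -0.23 ± 0.08, SE). The 93 cytosolic ribosome genes had 84 positive fold changes (78 without circTau6 replicate 3, and 82 to 88 under the other scalings), a median of 0.07, and 14 higher at an unadjusted p under 0.05 (2.58% of all tested genes were). Those with an unadjusted p under 0.05 numbered 6 without circTau6 replicate 3, 8 without circTau6 replicate 4 and 9 without control replicate 4. Over all tested genes, the numbers were 468, 485 and 442 in these fits, against 637 in the main fit. With the GC correction, 16 of the ribosome genes and 649 of all tested genes had such a p, and the ribosome median was 0.06. Rps12, an example of the higher genes, had 67.00 ± 1.59 against 73.9 ± 4.42 CPM (log2 fold change 0.14 ± 0.05, SE). The median deviation of the 93 genes was 0.12 in circTau6 replicate 3, the highest of the 10 libraries, as it was for the nuclear subunits of complexes I to V.

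**Figure D5:**
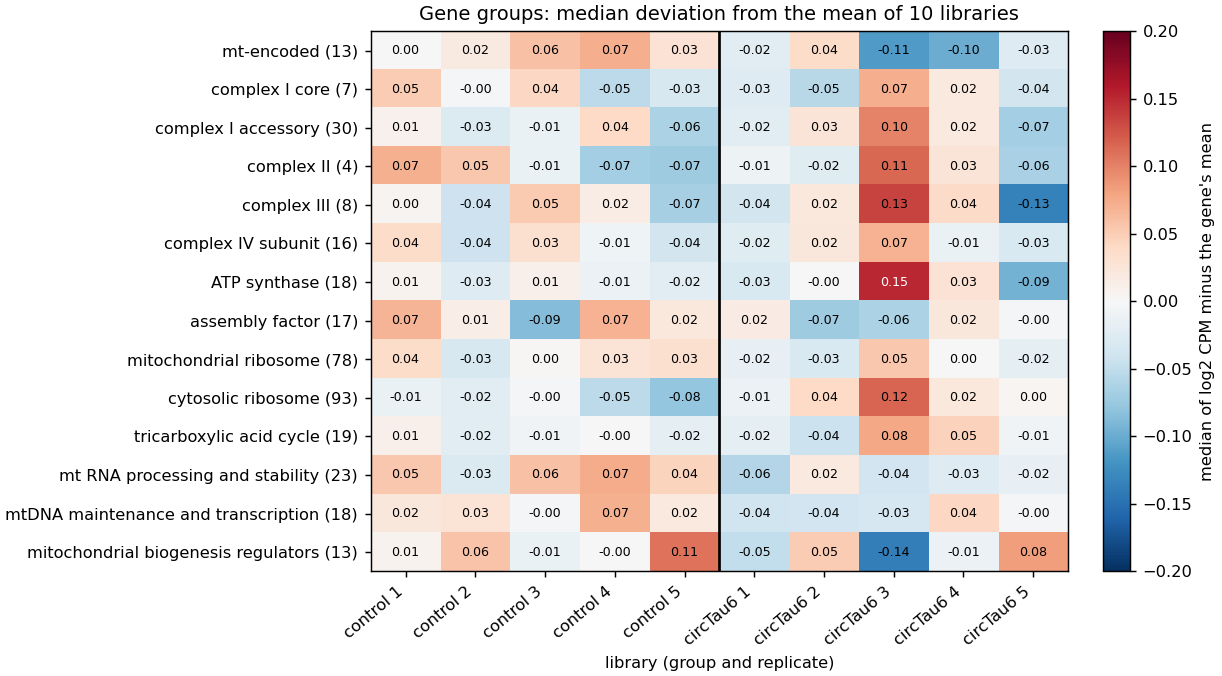
Median deviation of gene groups in each library: the median over a group's tested genes (number in parentheses) of log2 CPM minus the gene's 10-library mean, red above and blue below, with a black line between the groups of mice. In circTau6 replicate 3 the mitochondrial genes (-0.11) lie below 0 and the nuclear subunit groups, such as ATP synthase (0.15) and complex III (0.13), above it. Other nuclear groups lie below 0 there too: assembly factors (-0.06), mt RNA processing (-0.04), mtDNA maintenance (-0.03) and biogenesis regulators (-0.14).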

How the data were processed

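Hippocampal RNA of 5 control and 5 circTau6 mice was compared, grouped by the treatment label. Per the file headers, the authors deposited a table with a count and a TPM per gene and library, group means of TPM, a log2 fold change, a p-value and an FDR. Counts are unnormalised and TPM are scaled within a library. The deposited log2 fold change and p-value are the authors' own comparison by an unstated test. StringTie 1.3.1 and RSEM are named in the submitters' processing notes without their roles. Aligner, build and annotation: not given in the sources used here. Of 21956 gene IDs, 21804 matched GENCODE M21 (GRCm38), which gave coordinates, GC content and length, including all 121 members.

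The members and gene lists were chosen with earlier results of these data known. In R 4.3.3, edgeR 4.0.16 was run on all counts with filterByExpr, TMM scaling, a robust quasi-likelihood fit and Benjamini-Hochberg adjustment at 0.05 over all tested genes, and only these members are given. The SE is the edgeR log2 fold change divided by the square root of its F statistic. CPM were computed with TMM scaling, and log2 CPM with a prior count of 2. The fitting script was tested on simulated data. Library totals were 14762952 to 17647138 counts, and 3 counts equal 0.203 CPM in the shallowest, for counting error only. All library pairs differed by more than sampling noise (chi-square per gene 4.30 to 32.9).

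Members given in more detail were, in each role group, the one with the highest control TPM and the 2 with the lowest unadjusted p, and the isoform families; ranges replace library values where differences were small. Alternatives were DESeq2 1.42.0, limma 3.58.1 with voom and on log2(TPM + 1) and log2(TPM + 0.1), other scalings (scaling factors from RLE, upper quartile, none, or without mitochondrial rows), other filters, a replicate block, a correction for GC content by lowess within each library (span 0.3), leaving out each library, and leaving out control replicate 2 and circTau6 replicate 5 (low in choroid plexus markers) together. Replicate numbers appear in both groups, but nothing in the labels pairs the mice, and the main test has no block. Promoter sequences are from RefSeq, and 23 of the 108 nuclear members had no window.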

Additional observations from a re-analysis of the deposited data

Results flagged for a closer look

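In groups of 5 libraries, 128 groups of values were examined for 1 library far from the other 4 (Dixon's test at 95%), of which chance would flag about 5 in 100, and 7 were flagged. The level of mitochondrial complex I genes relative to the other mitochondrial genes (difference of mean log2 CPM) was -1.31 in circTau6 replicate 3, against -1.11 to -1.08 in the other circTau6 libraries. The same library had the highest mt-Co3 of its group, 9188 CPM against 8565 to 8720 CPM. mt-Nd4l was high in 1 library of each group, at 558 CPM in control replicate 4 against 468 to 479 CPM, and at 599.97 CPM in circTau6 replicate 2 against 428 to 469.5 CPM. mt-Nd5 was 8284 CPM in control replicate 3, against 7778 to 7914 CPM in the other controls. Of the nuclear genes, Ndufa4 was 78.4 CPM in circTau6 replicate 5 against 90.3 to 94.9 CPM, and the complex I core gene Ndufs8 was 33.5 CPM in circTau6 replicate 2 against 35.2 to 35.8 CPM. In circTau6 replicate 3 the correlation of all genes' deviations with GC content was 0.37, as given above, and its part in the first 2 of these values was not tested.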

How the results depend on the processing

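No member was called under any alternative. Over all genes, where edgeR called 0 (637 at an unadjusted p under 0.05), the count was 14 with DESeq2 (746 at an unadjusted p under 0.05), 2 with voom, 2 without scaling factors, 2 without a filter, 2 with the GC correction, 3 without both choroid-poor libraries, and 0 to 4 when 1 library was left out (4 without circTau6 replicate 5, 1 without control replicate 1 or 3). The 6 members with an unadjusted p under 0.05 became 2 with the GC correction, 11 on log2(TPM + 1), 11 on log2(TPM + 0.1) with either the main filter or a mean TPM of at least 1, 12 on log2(TPM + 0.1) without a filter, and 0 to 8 with 1 library left out. They were 0 without circTau6 replicate 4 or control replicate 4 and 3 without circTau6 replicate 3. Of the 14396 genes tested in the main fit, 649 had such a p with the GC correction. The number was 485 without circTau6 replicate 4, 442 without control replicate 4 and 468 without circTau6 replicate 3. Of the 6 members, the 5 mitochondrial genes became 3 without scaling factors, 1 with the GC correction and 0 to 8 with 1 library left out (8 without circTau6 replicate 2). The 13 negative mitochondrial fold changes became 6 with the GC correction and 11 to 13 with 1 library left out. As a share of TPM, the mitochondrial difference was -0.855 percentage points. The cause of these shifts was not tested.

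With 1 library left out, medians ranged from -0.12 to -0.04 (mitochondrial), -0.02 to 0.03 (nuclear subunits) and -0.09 to -0.04 (assembly factors), the share difference from -0.398 to -0.272 points, and the difference of mitochondrial from nuclear levels from -0.13 to -0.04. For the 36 tested genes described in detail, 899 fits under 25 alternatives gave 0 calls (lowest adjusted p 0.726, over edgeR, DESeq2 and limma), and the sign of the fold change differed from the main one in 28 of them, while 25 genes kept it throughout.

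Same-numbered mice did not deviate together (correlations -0.08 to 0.14, 3 of 5 over 0.1, and 0 controls closest to their own number). With the replicate block, edgeR called 4 genes over all, 0 members, and gave 4 members and 3 mitochondrial genes with an unadjusted p under 0.05.

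Shares do not depend on scaling or test, and library-level differences have no value under DESeq2, voom or the block, so those combinations have no value. A level of 0 counts, as for Cox8c, allows up to 0.203 CPM in the shallowest library.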
